A study of Rattus norvegicus with 5 samples.

Results

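Neuropeptide genes expressed in the dorsal horn, and the genes of their receptors, were examined in rat spinal cord after nerve injury. The set held 42 genes, of 17321 in the deposited count table, chosen by their symbols: 17 encode peptides and 25 encode receptors, receptor accessory proteins or a clearance receptor. Every symbol matched a row, and every one passed the filter on low counts. The tissue was dorsal horn of the lumbar cord (L4-L6), the region where sensory fibres of the hindlimb end, collected from rats of the Sprague Dawley strain 9 days after surgery. The 3 CCI libraries came from operated rats (CCI usually stands for chronic constriction injury, a ligation of the sciatic nerve that serves to model neuropathic pain), and the 2 SHAM libraries from rats given the operation without the injury. The labels give no age, sex, side or genotype, and do not say whether a library is 1 animal or a pool, so every test below measures the spread between libraries, which may be technical. The question was whether messenger RNA of these peptides, or of the receptors that read them, differed between CCI and SHAM.

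Neuropeptides are cut from larger precursors, stored in dense core vesicles and released by strong firing, after which they act slowly on G protein-coupled receptors at some distance. In the dorsal horn, substance P (from Tac1), neurotensin, cholecystokinin, gastrin-releasing peptide and neuromedin U are made largely by excitatory interneurons, while neuropeptide Y and galanin are made largely by inhibitory ones. Calcitonin gene-related peptide (CGRP) is different: its messenger RNA is made in sensory ganglion cells and in motor neurons, and the CGRP of the dorsal horn arrives in the terminals of sensory fibres. RNA of the dorsal horn therefore reports on peptides made locally and not on peptide carried in from the ganglion.

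Total estimated counts ran from 20053353 to 23673198 per library, and the 42 genes together held 0.0991% to 0.120% of them. Ribosomal RNA made up 16.0% of counts in CCI 3, and between 2.18% and 2.71% elsewhere. No pair of libraries agreed within sampling noise. Schwann cell and fibroblast genes stood apart in CCI 2 and CCI 3: the summed level of 14 fibroblast and meningeal genes was 976 and 834 CPM (counts scaled to a common library size) there and 220 to 277 CPM in the other 3 libraries, and that of 14 Schwann cell genes was 434 and 868 CPM against 195 to 208 CPM. Values without both libraries are given beside several results.

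No peptide and no receptor passed the test for a difference between CCI and SHAM. By edgeR's quasi-likelihood test, 0 of 42 were called (a call needed an adjusted p no higher than 0.05 and a 1.5-fold difference or more), where 2.85% of all 13478 tested genes were called. The likelihood ratio test, DESeq2 and limma-voom each called 1 of the 42, Calcb, lower in CCI. An unadjusted p under 0.05 was reached by 6 of the 42 (14.3%, beside 16.0% of all tested genes): Crh, Tac1 and Calcrl with higher values in CCI, and Calcb, Vipr2 and Cck with lower ones. The CCI and SHAM libraries did not overlap for 10 of the 42 (23.8%, beside 36.7% of all tested genes), 6 of them with CCI higher (beside 18.6% of all tested genes) and 4 with CCI lower (beside 18.1%). These shares are near or below the background. With 3 libraries against 2, an exact two-sided permutation test cannot go below p = 0.1, which Tac1, Cck, Crh and Calcb reached, while Vipr2 and Calcrl gave p = 0.2.

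Peptides were measured less precisely than receptors, with median SEs of 0.26 and 0.18 on the log2 scale; the classes were not tested against each other. The median log2 fold change (CCI minus SHAM) was 0.24 over the 17 peptides and 0.03 over the 25 receptors, beside 0.01 over all tested genes. The peptide median depended on single libraries, being -0.07 without SHAM 1 and 0.68 without SHAM 2. A 95% interval lying wholly inside a 1.5-fold change in either direction was found for 11 of 25 receptors and 1 of 17 peptides, neurotensin (Nts), beside 58.7% of all tested genes. The interval of Calcb lay wholly beyond a 1.5-fold decrease, although its adjusted p missed the threshold. For the other members the interval reached past 1.5-fold without excluding smaller changes.

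**Figure D1:**
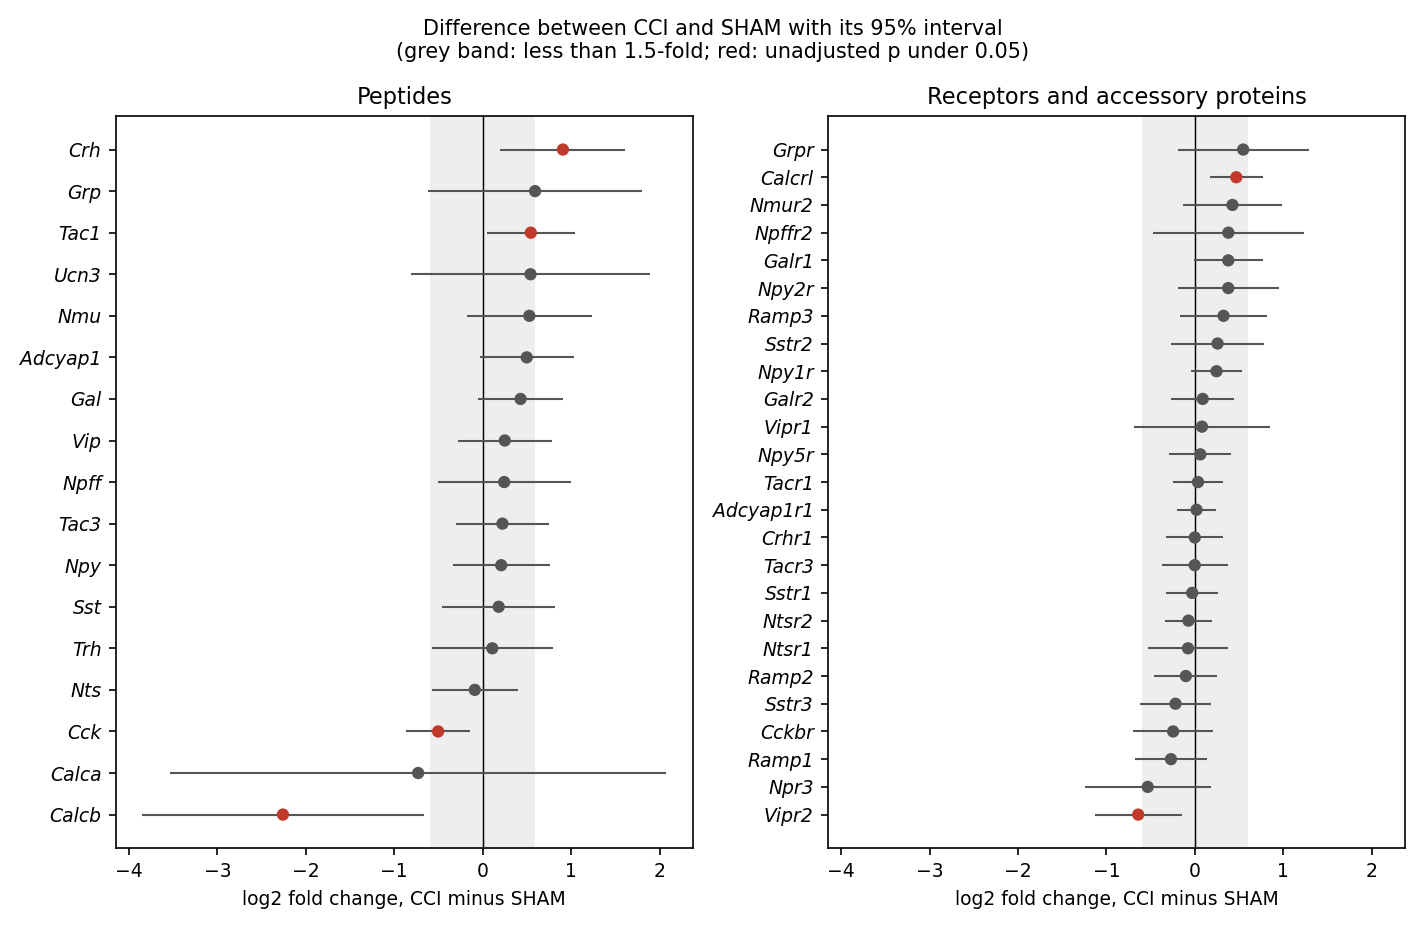
Log2 fold change, CCI minus SHAM, of each of the 17 peptide genes (left) and 25 receptor and accessory genes (right), as a point with its 95% interval from edgeR's quasi-likelihood fit (3 CCI and 2 SHAM libraries). The grey band marks changes under 1.5-fold, and red points the 6 genes with an unadjusted p under 0.05; Calcb lies farthest from 0 at -2.26 and Calca has the widest interval.

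The peptide genes moved between libraries of the same group. SHAM 2 stood above SHAM 1 for 13 of 17 peptides, with a median ratio of 1.54, whereas over all tested genes the median ratio was 1.0. SHAM 1 was the lowest of the 5 libraries for 10 of 17 peptides (58.8%, beside 22.4% of all tested genes), and CCI 2 was the highest for 9 of 17 (52.9%, beside 23.0%). Summed markers of dorsal horn excitatory neurons had the same 2 extremes, at 691 and 749 CPM with SHAM 1 and SHAM 2. They were 724, 825 and 794 CPM in CCI 1 to CCI 3. The summed markers of inhibitory dorsal horn neurons did not share these extremes. Their sums were 963 and 1004 CPM with SHAM 1 and SHAM 2 and 965, 857 and 1046 CPM in CCI 1 to CCI 3. CCI 2 had the lowest sum, as it had for the pan-neuronal list (5814 CPM). A large part of the inhibitory sum was 1 gene, Slc6a5. It was 425, 315 and 511 CPM in CCI 1 to CCI 3 and 458 and 447 CPM with SHAM 1 and SHAM 2. Gene by gene, CCI 2 was the lowest library for only 2 of 13 tested inhibitory genes, so the sum does not describe most of them. The part of tissue content in the peptide values was not tested. In bulk tissue, fewer cells of a type and less RNA per cell cannot be told apart.

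Between genes, levels can be compared only per transcript length, so the authors' deposited normalized TPM values are used for that. Somatostatin (Sst) had the highest peptide level, a mean of 163 TPM with a range of 109 to 206 over the 5 libraries. Tac1 (96.3 TPM), Calca (90.2 TPM), Cck (84.8 TPM) and Npy (81.1 TPM) followed, each with a range that overlapped that of its neighbour. Calca ranged from 16.2 to 133 TPM, and which cells its RNA came from was not tested. Crh and Ucn3 were lowest, at 2.80 and 2.15 TPM. Among receptors, the astrocyte-enriched neurotensin receptor Ntsr2 (67.4 TPM) and the PACAP receptor Adcyap1r1 (58.5 TPM) were highest, with ranges that did not overlap. Vipr1, a receptor for vasoactive intestinal peptide, was lowest at 0.404 TPM.

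The promoters of Tac1, Gal and Calca are shown because the values below turn on these peptides: for Tac1 and Gal all CCI libraries lay above SHAM, and Calca had the widest spread among CCI libraries. Peptide genes are a textbook target of the factor CREB, which binds the cAMP response element TGACGTCA or its half-site TGACG. Each window is the 250 bases before the RefSeq start (build GRCr8), 5′ to 3′ on the gene's strand, with half-sites on either strand in capitals. The windows are chr4:36645333-36645582 (+) for Tac1, chr1:210084573-210084822 (-) for Gal and chr1:178317530-178317779 (-) for Calca.
Tac1: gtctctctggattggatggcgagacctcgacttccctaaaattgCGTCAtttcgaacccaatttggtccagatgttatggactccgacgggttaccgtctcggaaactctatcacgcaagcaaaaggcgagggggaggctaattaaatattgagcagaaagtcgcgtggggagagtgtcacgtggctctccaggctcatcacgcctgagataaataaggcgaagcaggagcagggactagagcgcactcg
Gal: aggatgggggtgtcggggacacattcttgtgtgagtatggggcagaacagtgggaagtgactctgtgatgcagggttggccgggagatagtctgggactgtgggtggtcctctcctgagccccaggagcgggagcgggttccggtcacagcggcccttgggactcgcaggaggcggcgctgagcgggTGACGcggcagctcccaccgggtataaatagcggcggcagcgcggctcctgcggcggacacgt
Calca: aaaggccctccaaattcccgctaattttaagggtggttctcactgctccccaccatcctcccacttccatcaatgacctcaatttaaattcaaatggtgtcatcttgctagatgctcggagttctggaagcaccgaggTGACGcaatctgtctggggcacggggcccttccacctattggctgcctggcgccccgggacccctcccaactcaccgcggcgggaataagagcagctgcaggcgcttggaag
Of the 42 genes, 35 had a promoter in the RefSeq table. The peptide genes Tac3, Cck, Crh, Npff and Calcb had none there. A half-site on either strand was found in 9 of 12 peptide promoters and 7 of 23 receptor promoters, beside 18.2% of 33469 promoters of the same length. In these windows the full element, which contains half-sites, was found in 0 of 12 peptide promoters and 1 of 23 receptor promoters (Sstr2), beside 1.59% of all. The Sst window held neither element. An element outside the 250 bases, or before another start of the same gene, would be missed, so a gene without a match may still carry one. A match is a run of letters and no evidence of binding.

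Among tachykinins, Tac1 had higher values in CCI without passing the test. Tac1 encodes substance P and neurokinin A. It was 64.4, 89.7 and 66.5 CPM in CCI 1 to CCI 3 and 40.5 and 60.4 CPM with SHAM 1 and SHAM 2. The groups did not overlap, but CCI 1 and CCI 3 lay closer to SHAM 2 than SHAM 2 did to SHAM 1. The group means were 73.5 ± 14.0 CPM (SD, n = 3) and 50.5 ± 14.0 CPM (SD, n = 2), a log2 fold change of 0.54 (SE 0.21, 95% interval 0.05 to 1.04, adjusted p = 0.271). Without SHAM 1 the log2 fold change was 0.28, without SHAM 2 it was 0.85, and without both CCI 2 and CCI 3 it was 0.34. Tac3, which encodes neurokinin B, was 21.3, 30.3 and 25.0 CPM with CCI, against 16.96 and 26.9 CPM with SHAM, with overlapping groups. Their receptors had intervals inside 1.5-fold: Tacr1, the substance P receptor of lamina I projection neurons, had a log2 fold change of 0.03 (95% interval -0.24 to 0.31), and Tacr3, the neurokinin B receptor, an interval of -0.38 to 0.37. Tacr1 had fractional estimated counts, which can be shared with another row, and is uncertain.

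The CGRP genes varied more than any other peptide genes of the set. Calcb, which encodes beta-CGRP, was 3.98, 0.635 and 2.28 CPM in CCI 1 to CCI 3 and 11.6 and 10.2 CPM with SHAM. Every CCI library lay below both SHAM libraries, and CCI 2 was the lowest with 16 counts, against 204 and 255 counts in SHAM. The means were 2.30 ± 1.67 CPM (SD, n = 3) and 10.9 ± 0.989 CPM (SD, n = 2), a log2 fold change of -2.26 (SE 0.63, 95% interval -3.85 to -0.67, adjusted p = 0.178). Calcb passed the same test without CCI 1 (-2.96, adjusted p = 0.0240) and without CCI 2 (-1.79, adjusted p = 0.00267) and did not pass without CCI 3 (adjusted p = 0.358), without SHAM 1 (adjusted p = 0.609) or without SHAM 2 (adjusted p = 0.445). With CCI 2 and CCI 3 both left out, the log2 fold change was -1.46 (adjusted p = 0.00439), with the spread taken from SHAM alone.

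Calca, which encodes calcitonin and alpha-CGRP by alternative splicing, showed no such separation. Its level was 81.2, 10.2 and 47.7 CPM with CCI, against 85.8 and 67.5 CPM with SHAM. CCI 1 stood inside the SHAM range while CCI 2 stood far below it. The log2 fold change was -0.73 (SE 0.94, adjusted p = 0.755), and it was -0.25 without CCI 2, -1.42 without CCI 1 and 0.07 with CCI 2 and CCI 3 left out. The table sums all Calca transcripts, so calcitonin and alpha-CGRP cannot be told apart here.

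The ratio of Calca to Calcb is given as a description, since it was chosen after its values were seen. It was 20.4, 16.1 and 20.9 counts of Calca per count of Calcb with CCI, against 7.40 and 6.62 with SHAM. The value of CCI 2 rests on 16 counts of Calcb.

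Motor neuron genes, like Calcb, were lower in CCI, most of them with the same order of libraries. Of 12 tested motor neuron genes, 5 fell and none rose (beside 0.260% of all tested genes called lower). All 12 were lower in every CCI library than in either SHAM library (beside 18.1% of all tested genes). Mnx1, a motor neuron transcription factor gene, fell by 2.71, Lhx4, a related factor gene, by 1.83, Chat, the enzyme that makes acetylcholine, by 1.02, Slc5a7, the choline transporter, by 1.96 and Chodl, a gene of fast motor neurons, by 3.41 on the log2 scale. Chat and Chodl are uncertain for their fractional counts. Calcb ran, from lowest to highest, through CCI 2, CCI 3, CCI 1, SHAM 2 and SHAM 1, and 8 of the 12 motor neuron genes ran in the same order. That order held for 1 of 10 pan-neuronal and 2 of 9 sensory ganglion genes, and was not counted over all tested genes. The 2 sensory ganglion genes were Prph, which is also on the motor neuron list, and Nefh, which motor neurons also express. Part of the match follows from the separation of the groups alone. CCI 2 was the lowest library for 10 of the 12 motor neuron genes. It was also the lowest for 6 of 10 pan-neuronal genes and 5 of 9 sensory ganglion genes, beside 19.0% of all tested genes. Slc18a3, the vesicular acetylcholine transporter gene, was 24.9, 4.92 and 18.5 CPM with CCI, against 49.6 and 38.9 CPM with SHAM, and Prph, a filament gene of motor and sensory neurons, was 235, 56.9 and 131 CPM and 302 and 238 CPM; both were named after their values were seen. The summed motor neuron level was 602, 322 and 433 CPM with CCI, against 1092 and 808 CPM with SHAM. With the mean level of the motor neuron list as a covariate, the log2 fold change was 0.70 for Calcb (SE 0.73) and 2.97 for Calca, but that level itself separates the groups, so the covariate and the injury cannot be told apart.

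Defining genes of sensory ganglion neurons were at or near 0. Mrgprd had no count in any library, the sodium channel gene Scn10a ran from 0.318 to 0.550 CPM, and Scn11a from 0.159 to 0.509 CPM, with no separation of CCI from SHAM. Of 9 tested genes of that list 1 fell, the neurofilament gene Nefh, which motor neurons also express. The summed level of the list was 1990, 1221 and 1503 CPM with CCI and 3835 and 2747 CPM with SHAM, of which Nefh made up 1517, 982 and 1125 CPM and 3331 and 2322 CPM. The motor neuron list also holds 2 genes of this list, Prph and Isl1.

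**Figure D2:**
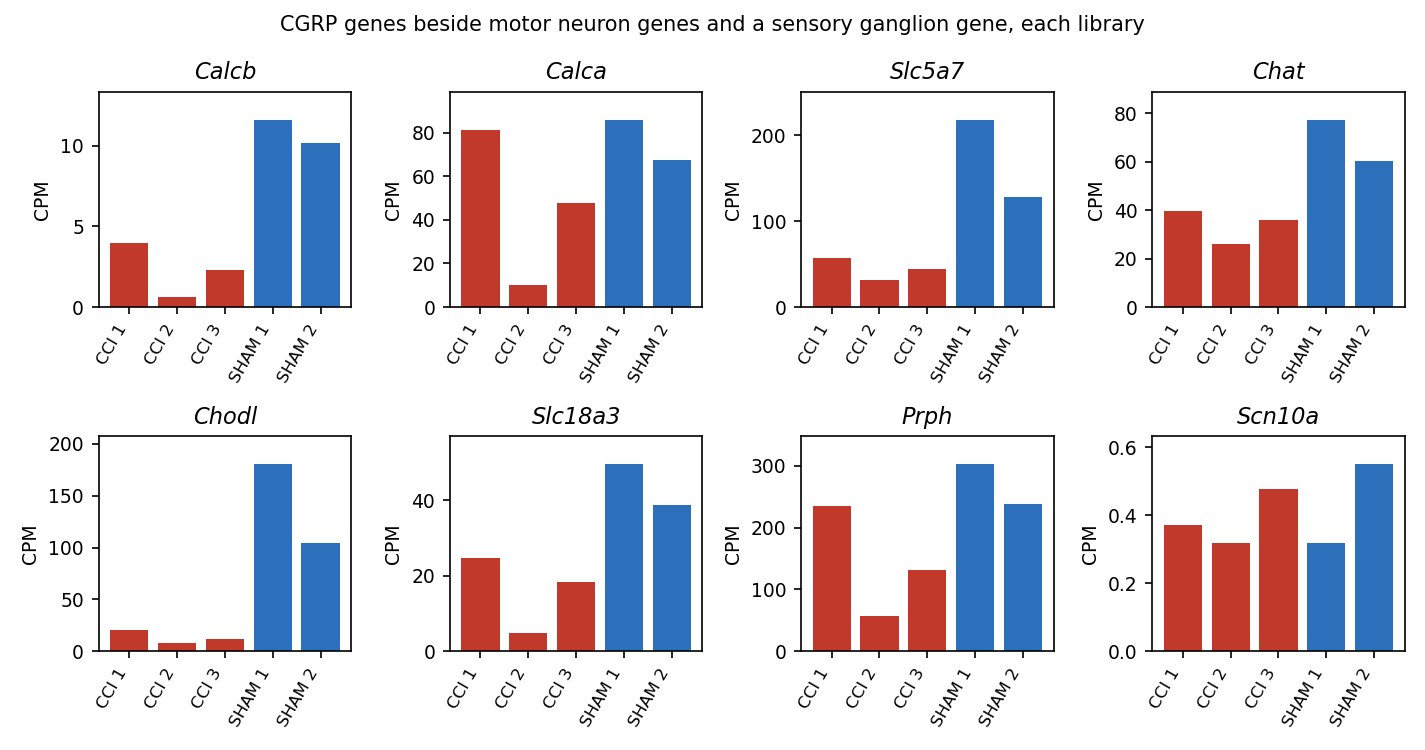
Level in CPM (bars, linear axis from 0) of Calcb and Calca, of the motor neuron genes Slc5a7, Chat, Chodl and Slc18a3, of Prph and of the sensory ganglion gene Scn10a in each CCI (red) and SHAM (blue) library. Calcb and the 4 motor neuron genes were lower in all CCI libraries than in SHAM, with CCI 2 the lowest, while Calca in CCI 1 (81.2 CPM) lay inside the SHAM range and Scn10a stayed under 1 CPM throughout.

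The CGRP receptor is built from the receptor protein of Calcrl with the accessory protein of Ramp1, while Ramp2 and Ramp3 turn the same protein into receptors for adrenomedullin. Calcrl was 72.6, 95.9 and 89.4 CPM with CCI, against 63.8 and 60.5 CPM with SHAM. All CCI libraries lay above SHAM, CCI 1 by the least. The means were 86.0 ± 12 CPM (SD, n = 3) and 62.2 ± 2.34 CPM (SD, n = 2), a log2 fold change of 0.47 (SE 0.13, 95% interval 0.17 to 0.77, adjusted p = 0.116). The adjusted p was 0.0437 by the likelihood ratio test, 0.0406 by DESeq2 and 0.0243 by the quasi-likelihood test without CCI 1, each with a fold below 1.5. With CCI 2 and CCI 3 left out, the 2 libraries with high fibroblast genes, the log2 fold change was 0.21 (adjusted p = 0.740).

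Calcrl is also a gene of blood vessels. The summed level of 16 endothelial and mural genes was 625, 775 and 637 CPM with CCI, against 612 and 659 CPM with SHAM, with CCI 2 the highest for both; its part in the Calcrl values was not tested. Ramp1 (log2 fold change -0.27), Ramp2 (-0.10) and Ramp3 (0.32) had overlapping groups. Ramp2 held its 95% interval within 1.5-fold, at -0.46 to 0.25.

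Among the other peptides of excitatory interneurons, Cck had lower values in CCI. Cck was 28.6, 29.8 and 30.7 CPM with CCI, against 34.1 and 50.1 CPM with SHAM. The 3 CCI libraries were nearly alike, and the distance to SHAM came mostly from SHAM 2. The log2 fold change was -0.50 (SE 0.16, 95% interval -0.86 to -0.14, adjusted p = 0.161), -0.21 without SHAM 2 and -0.76 without SHAM 1. Cckbr, the main cholecystokinin receptor of the central nervous system, also had all CCI libraries below SHAM, at 5.23, 5.36 and 4.98 CPM against 6.82 and 5.50 CPM (log2 fold change -0.25, adjusted p = 0.573).

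Neurotensin, gastrin-releasing peptide and neuromedin U overlapped between the groups. Nts was 14.5, 21.4 and 17.9 CPM with CCI, against 15.6 and 22.7 CPM with SHAM, a log2 fold change of -0.09 (95% interval -0.58 to 0.40). Its receptor genes Ntsr1 and Ntsr2 had log2 fold changes of -0.08 and -0.07, both with intervals inside 1.5-fold. Grp, a peptide of spinal itch circuits, was 3.56, 4.21 and 1.70 CPM with CCI, against 1.14 and 3.10 CPM with SHAM, a spread within each group as large as the distance between them. Its receptor gene Grpr was 2.08, 2.42 and 2.33 CPM against 1.18 and 1.95 CPM, with no overlap but only 26 to 61 counts a library (log2 fold change 0.55, adjusted p = 0.446). Nmu was 3.70, 7.11 and 6.58 CPM with CCI, against 3.41 and 4.65 CPM with SHAM (log2 fold change 0.53, adjusted p = 0.444), and its receptor gene Nmur2 was 4.44, 6.71 and 6.63 CPM with CCI, against 4.09 and 4.75 CPM with SHAM. For both, CCI 1 lay inside the SHAM range while CCI 2 and CCI 3 lay above. With those libraries left out, the log2 fold change of Nmu was -0.13 and that of Nmur2 was near 0.

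**Figure D3:**
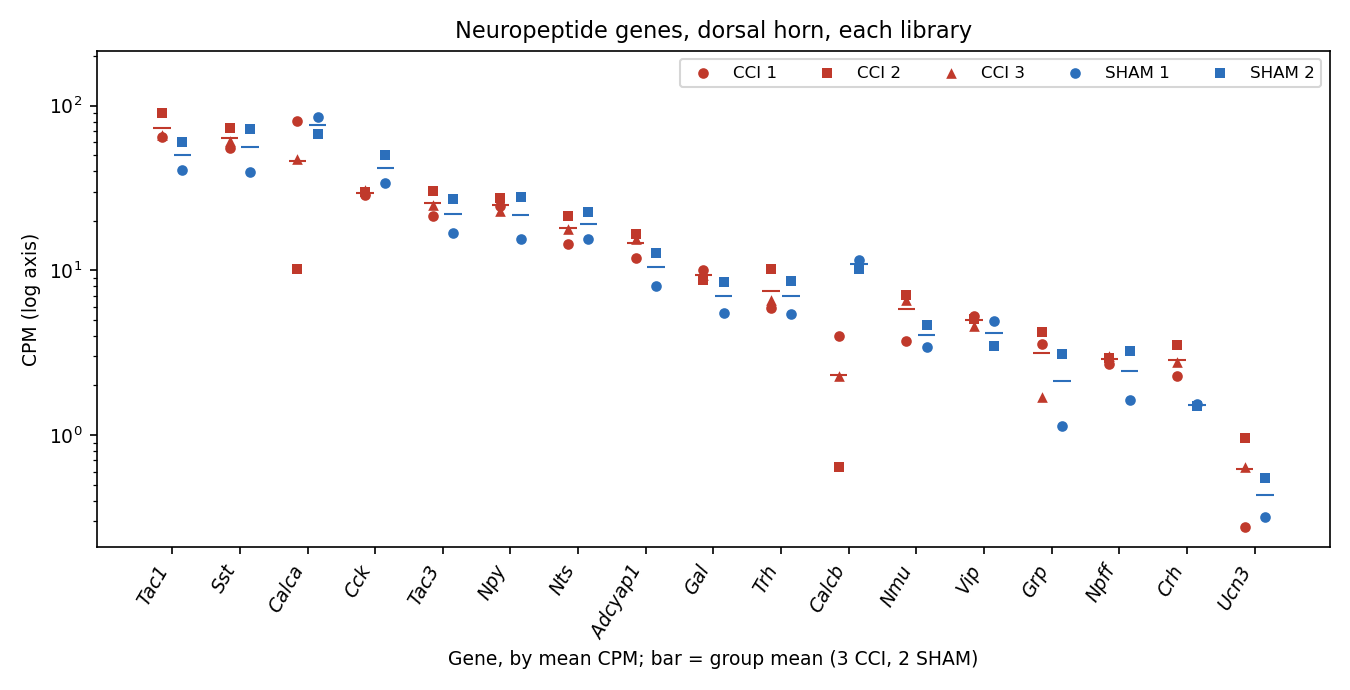
CPM (log axis) of the 17 peptide genes in each CCI (red) and SHAM (blue) library, ordered by mean level, with a bar at each group mean. SHAM 1 (blue circle) is below SHAM 2 (blue square) for 13 of 17 genes, and the CGRP genes Calca and Calcb stand out by the low value of CCI 2, at 10.2 and 0.635 CPM.

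Of the peptides of inhibitory interneurons, galanin had no overlap between groups and the rest did. Gal, a peptide that sensory neurons make in quantity after axon injury and that dorsal horn neurons make at rest, was 10.1, 8.69 and 9.33 CPM with CCI, against 5.50 and 8.44 CPM with SHAM. SHAM 2 lay just under the lowest CCI library, so the distance came from SHAM 1. The log2 fold change was 0.43 (SE 0.21, adjusted p = 0.369), and 0.15 without SHAM 1. Its receptor gene Galr1 was 23.2, 32.6 and 28.5 CPM with CCI, against 19.1 and 24.2 CPM with SHAM (log2 fold change 0.38, adjusted p = 0.325, and 0.09 with CCI 2 and CCI 3 left out), while Galr2 was nearly constant, between 8.54 and 9.44 CPM in all 5 libraries.

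Neuropeptide Y, of inhibitory interneurons, and somatostatin, made largely by excitatory ones, differed more within SHAM than between the groups. Npy was 24.5, 27.7 and 23.1 CPM with CCI, against 15.6 and 27.9 CPM with SHAM, and Sst was 55.2, 73.2 and 61.4 CPM and 39.5 and 72.2 CPM. In both, SHAM 2 lay near the top of the CCI range and SHAM 1 lay below it, and the log2 fold changes were 0.21 and 0.18. The neuropeptide Y receptor genes had log2 fold changes of 0.24 (Npy1r), 0.38 (Npy2r) and 0.06 (Npy5r), with adjusted p of 0.398, 0.494 and 0.874, and Npy1r is uncertain for its fractional counts. The somatostatin receptor genes were Sstr1 at -0.03, Sstr2 at 0.26 and Sstr3 at -0.22, and the interval of Sstr1 lay within 1.5-fold (-0.33 to 0.27).

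Crh had the largest positive log2 fold change of the 42 genes, on few counts. Crh encodes corticotropin-releasing hormone, best known from the stress axis. It was 2.27, 3.53 and 2.76 CPM with CCI, against 1.55 and 1.50 CPM with SHAM, which rests on 49, 89 and 52 counts and on 34 and 30 counts. Here the SHAM libraries were alike and all CCI libraries lay above them, with a log2 fold change of 0.91 (SE 0.31, 95% interval 0.20 to 1.61, adjusted p = 0.194). Its log2 fold change was 0.56 with CCI 2 and CCI 3 left out and 0.02 with the motor neuron covariate, and no alternative brought its adjusted p under 0.0958. Its receptor gene Crhr1 had a 95% interval of -0.33 to 0.32, and Ucn3, a peptide of the second receptor of that family, had 6 to 24 counts a library and a mean under 1 CPM.

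Of the PACAP and VIP family, the receptor gene Vipr2 had lower values in CCI. Vipr2 binds both peptides. It was 4.72, 6.99 and 5.94 CPM with CCI, against 10.2 and 8.14 CPM with SHAM, with no overlap. Group means were 5.88 ± 1.13 CPM (SD, n = 3) and 9.19 ± 1.47 CPM (SD, n = 2), a log2 fold change of -0.64 (SE 0.22, 95% interval -1.13 to -0.15, adjusted p = 0.187). Without both CCI 2 and CCI 3 it was -0.97 (adjusted p = 0.0696). Vip itself was 5.28, 5.08 and 4.56 CPM with CCI, against 4.91 and 3.45 CPM with SHAM, and Vipr1 had 27 to 54 counts a library (log2 fold change 0.08). Adcyap1, the PACAP gene, was 11.9, 16.6 and 15.5 CPM with CCI, against 8.05 and 12.8 CPM with SHAM, where CCI 1 lay below SHAM 2 (log2 fold change 0.50, adjusted p = 0.342, and 0.19 with CCI 2 and CCI 3 left out). Its receptor gene Adcyap1r1, abundant in glia and neurons, was the steadiest member, at 292 to 312 CPM over the 5 libraries (log2 fold change 0.02, 95% interval -0.20 to 0.23), and is uncertain for its fractional counts.

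The remaining members overlapped between the groups. Trh, the thyrotropin-releasing hormone gene, was 5.88, 10.2 and 6.58 CPM with CCI, against 5.41 and 8.64 CPM with SHAM. Npff, which encodes a peptide that modulates opioid action, was 2.68, 2.94 and 3.02 CPM with CCI, against 1.64 and 3.25 CPM with SHAM, and its receptor gene Npffr2 had a log2 fold change of 0.38 (SE 0.38). Npr3, the clearance receptor for natriuretic peptides, was 1.94, 2.34 and 2.70 CPM with CCI, against 4.23 and 2.50 CPM with SHAM (log2 fold change -0.53, adjusted p = 0.4404).

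**Figure D4:**
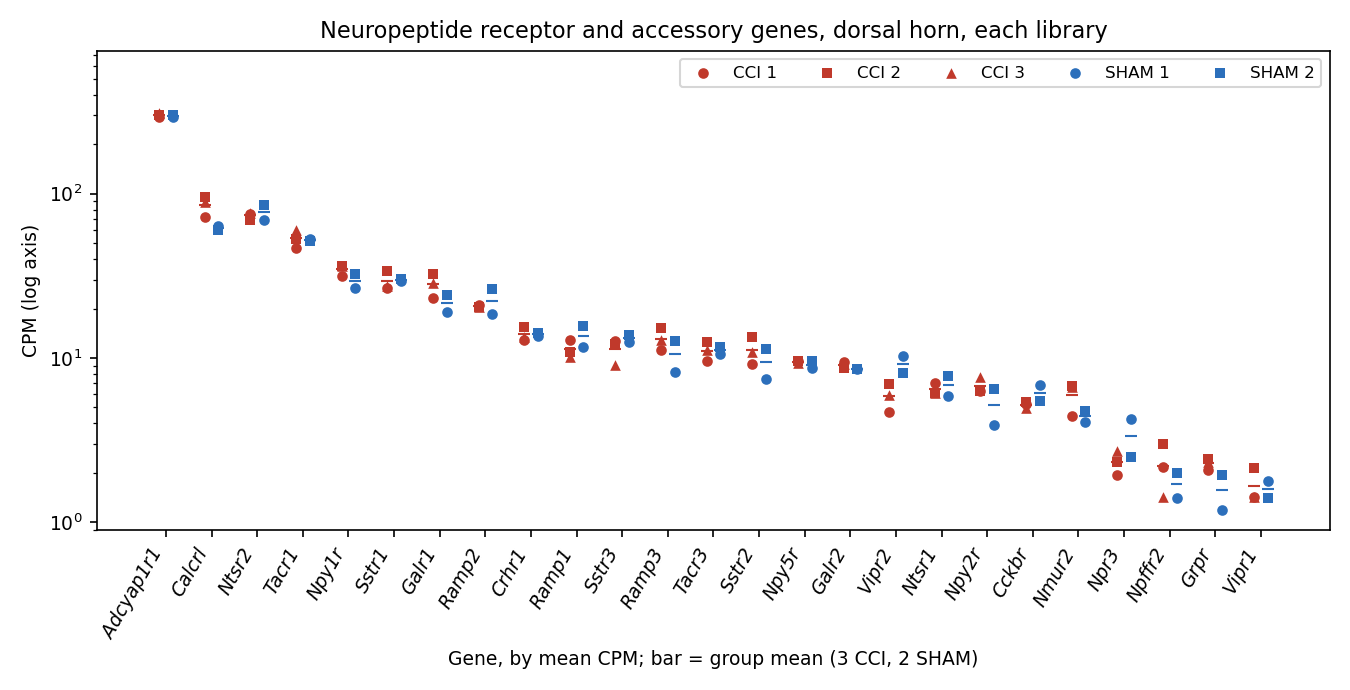
CPM (log axis) of the 25 receptor and accessory genes in each CCI (red) and SHAM (blue) library, ordered by mean level, with a bar at each group mean. Adcyap1r1 is the steadiest, at 292 to 312 CPM, and the highest library is under 1.5 times the lowest for 12 of 25 genes; Calcrl is higher and Vipr2 lower in every CCI library than in either SHAM library.

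Receptors were steadier across the 5 libraries than peptides. The ratio of the highest to the lowest library was under 1.5 for 12 of 25 receptors and for 0 of 17 peptides, with medians of 1.53 and 1.98. It was 8.41 for Calca and 18.2 for Calcb, with Grp next among peptides at 3.70. Counting error is larger for genes of few counts, and its part in this difference was not tested. Among genes of many counts, the ratio was 2.21 for Tac1 (892 to 2259 counts) and 1.07 for Adcyap1r1 (5881 to 7580 counts). Among genes of fewer counts, it was 1.105 for Galr2 (171 to 218 counts) and 3.43 for Ucn3 (6 to 24 counts).

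Other genes of the same systems did not pass either, where 2.85% of all tested genes were called. At that share lists of 6 to 22 genes may well hold no call. Of 20 further ligand genes found, only 6 had enough counts to be tested and none was called (median log2 fold change 0.10; Nppc 0.30, Adm 0.13), and of 18 further receptor genes none of 15 tested was called (median 0.01; the TRH receptor gene Trhr -0.35, the natriuretic receptor gene Npr1 -0.24). The enzymes that cut and amidate precursors, with the proteins of dense core vesicles, held 0 calls of 22 (median 0.11). Furin, a convertase of the Golgi, had a log2 fold change of 0.52 (adjusted p = 0.0902), and Cadps, which primes vesicles, one of -0.30 (adjusted p = 0.218). Peptide degrading enzymes held 0 calls of 17 (median 0.11), with Ece1, an endothelin converting enzyme that also cuts substance P and CGRP, at 0.45 (adjusted p = 0.0827) and Anpep at 0.75 (adjusted p = 0.317). At an unadjusted p under 0.05 there were 0, 0, 3 and 1 genes in these 4 lists (0%, 0%, 13.6% and 5.88%, beside 16.0% of all tested genes).

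Most microglial markers passed the test, where 2.85% of all tested genes were called (2.59% higher and 0.260% lower). At these shares a list of 10 to 16 genes may well hold no call, so the other lists, mostly without calls, are not set apart from the background. None of 10 excitatory dorsal horn genes was called (Car12 -0.54, Maf 0.39) and 1 of 13 inhibitory genes fell, Pvalb (-0.65). None of 10 pan-neuronal genes passed (Tubb3 -0.68, Uchl1 -0.28). Of 12 astrocyte genes, Gfap rose (1.04) and Slc7a10 fell (-0.76), and 9 of 12 microglial genes rose, those of lowest p being C1qa (2.36), C1qb (2.59), C1qc (2.82) and Itgam (1.82). None of 16 endothelial and mural genes (Pecam1 0.51, Cdh5 1.054), 14 fibroblast genes (Foxc1 0.65, Aldh1a2 2.0) or 14 Schwann cell genes (Pmp2 1.12, Ngfr 0.79) was called. Maf, Slc7a10, C1qb and Ngfr are uncertain for their fractional counts.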

How the data were processed

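Per the series' design text and the submitters' processing notes, the authors estimated expression with kallisto 0.44.0 (build rn6) and scaled it by trimmed mean of M-values (TMM); the gene annotation is not given in the sources used here. Every test used the estimated counts that the authors deposited, which are listed by gene symbol; levels between genes used their deposited table named TPM, a signal whose column totals differ. Coordinates from the GRCr8 tables were used for promoters only.

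Estimated counts were rounded. R 4.3.3 ran edgeR 4.0.16 (TMM, robust glmQLFit, two-sided glmQLFTest) on the 13478 genes that passed filterByExpr (minimum count 10), and p-values were adjusted over all of them by Benjamini-Hochberg. SEs were taken as the size of the log2 fold change over the square root of F, and 95% intervals use the fit's total degrees of freedom. CPM are TMM-scaled. Fractional counts (over 0.01 from a whole number) occurred in 3 of the 42 genes. Of the other genes named, Chat, Chodl, Scn10a, Adm, Maf, Slc7a10, C1qb and Ngfr also had them and are uncertain for that reason. Replicates were numbered in accession order. On simulated data for CCI against SHAM, run on 13411 genes, 31.3% of 1.5-fold, 74.6% of 2-fold and 98.5% of 4-fold changes were called, with 15 unchanged genes called. The changed genes were drawn from those with a mean of at least 1 CPM. A call needs an estimated fold of 1.5 or more, so a true 1.5-fold change is missed whenever its estimate falls short.

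Per-library values are given for genes with no overlap and an unadjusted p under 0.05, and for peptides with a mean of at least 1 CPM; of each list up to 4 called genes, or the 2 lowest by p. The per-library values of Cckbr, Grpr, Nmur2, Galr1 and Npr3, and the names Slc5a7, Slc18a3, Slc6a5 and Prph, were added after their values were seen. Alternatives used DESeq2 1.42.0 and limma 3.58.1. Members and lists were chosen with earlier results of these data known. Figures were drawn with matplotlib 3.10.9.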

Additional observations from a re-analysis of the deposited data

How the results depend on the processing

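No paired analysis was possible because the labels give no replicate numbers, and those used here follow accession order. Over 18 alternatives, no member was called higher, and 1 of 42, Calcb, was called lower under 6: the likelihood ratio test, DESeq2, limma-voom, without CCI 1, without CCI 2, and with CCI 2 and CCI 3 left out (1 in each, against 0 in the quasi-likelihood test of all libraries). Leaving out 1 library at a time gave 0 to 1 members called lower and 61 to 763 genes called in all, against 384. The total was 698 with the likelihood ratio test, 614 with DESeq2, 171 after adding Schwann cell genes as a covariate and 25 after adding motor neuron genes. Of 753 member values under the alternatives, 74 had the opposite sign, none of them called in either fit, and 24 of these came from the motor neuron covariate, which nearly coincides with the groups; 11 of 42 members kept their sign throughout. The scaling alternatives moved the median of all genes by less than 0.1 on the log2 scale. With 5 libraries, changes of 1.5-fold were often not called in the simulation (31.3% called), which was not split by count.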
